A study of Drosophila melanogaster with 2 samples.

Results

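Of the 8399 peaks of CG10631 fused to enhanced green fluorescent protein (eGFP), 1091 (13.0%, 95% Wilson interval 12.3 to 13.7%) had their summit deep in the introns of long genes. A peak belonged to this class when its summit lay more than 2 kb from every annotated transcription start site, inside a protein-coding gene and in no exon, and when the longest gene across the summit was 50 kb or longer. That longest gene is called the host, and the intron sequence that meets the same conditions is called eligible sequence. The 1091 peaks had 188 hosts.

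The data are from chromatin immunoprecipitation with sequencing (ChIP-seq) of whole fruit flies (Drosophila melanogaster) collected as white prepupae, when the larva has just stopped moving and its case has formed but not darkened. The animals came from a stable transgenic line that makes CG10631 with the green fluorescent protein tag at its C-terminal end, and the chromatin, sheared by sonication, was pulled down through the tag. The single group holds 2 biological replicates, numbered 2 and 3, and both carry the tagged transgene. Sex was not recorded, age beyond the stage is unknown, and whole animals mix all cell types, so a peak strong in few cells and a peak weak in many cannot be told apart. Untagged or input samples were not analysed here, and no comparison between conditions could be tested. The values are per-peak signals that the authors deposited, in a unit that the sources used here do not give. A signal serves here to rank peaks within a list, and read depth behind it is unknown.

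Long introns in flies often hold enhancers, short stretches that transcription factors bind and that control the host gene or a neighbour from a distance. Many of the longest fly genes code for developmental regulators, adhesion proteins of the nervous system and ion channels, and their first introns tend to be the longest. In the prepupa the steroid hormone ecdysone drives metamorphosis through a cascade of nuclear receptors and other regulators, several of them encoded by such long genes.

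The sequence at the summits was rich in A and T, and 1 word of 8 bases stood out. The word CACTGAGA, searched on both strands, was found within 100 bp of 86 summits (7.88%, 95% Wilson interval 6.43 to 9.63%), against 0.275% of the windows of the same size centred 500 bp away and 0.662% of windows tiled over all eligible sequence. It was picked because its share at these summits exceeded that in the flanks by the widest ratio (5 flank windows added) among 8-base words found at 3% or more of the summits, after words of other lengths and gapped forms had also been tried, so its share is a description. Shown here are 5 strong peaks in different hosts in which the word points to the summit from within the printed stretch. Each stretch runs from 90 bp before the summit to 90 bp after it. They are the strongest such peaks after the peaks of 1 chromosome arm were left out, so stronger ones may lie on that arm. The base at the middle of each stretch is the summit, the word is in capitals, and each stretch is read 5′ to 3′ so that the word comes first, from the strand named. The hosts are Tet, a gene of the TET dioxygenase family (chr3L:2823062-2823242, plus strand), pnt, an ETS transcription factor of receptor tyrosine kinase signalling (chr3R:23326390-23326570, plus strand), heca, a regulator of imaginal cells (chr3R:30293615-30293795, minus strand), Snoo, a Sno-family regulator of TGF-beta signalling (chr2L:7916425-7916605, plus strand), and pum, an RNA-binding repressor of translation (chr3R:9147550-9147730, minus strand). All positions are 1-based dm6 positions and the sequence is the RefSeq dm6 assembly.
Tet: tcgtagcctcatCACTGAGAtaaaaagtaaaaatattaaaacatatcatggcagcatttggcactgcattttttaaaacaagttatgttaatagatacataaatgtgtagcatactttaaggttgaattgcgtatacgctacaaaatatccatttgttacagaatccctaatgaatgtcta
pnt: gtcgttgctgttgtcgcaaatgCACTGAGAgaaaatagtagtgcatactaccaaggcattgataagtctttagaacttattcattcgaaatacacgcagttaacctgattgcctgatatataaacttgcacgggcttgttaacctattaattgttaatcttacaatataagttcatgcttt
heca: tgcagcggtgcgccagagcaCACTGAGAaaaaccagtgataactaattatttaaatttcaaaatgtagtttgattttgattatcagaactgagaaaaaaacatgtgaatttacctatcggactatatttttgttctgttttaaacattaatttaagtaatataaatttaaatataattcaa
Snoo: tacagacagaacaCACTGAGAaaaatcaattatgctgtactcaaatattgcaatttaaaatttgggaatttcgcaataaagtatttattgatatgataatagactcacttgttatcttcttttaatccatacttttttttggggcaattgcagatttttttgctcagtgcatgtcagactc
pum: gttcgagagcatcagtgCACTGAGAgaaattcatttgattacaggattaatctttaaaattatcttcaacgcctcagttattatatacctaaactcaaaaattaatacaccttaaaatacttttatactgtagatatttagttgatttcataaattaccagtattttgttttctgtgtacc

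In these 5 stretches the word lay 64 to 74 bp from the summit, and GC content over the stretch was between 26.5% in heca and 35.4% in pnt. The merged signals of the 5 peaks were 1166 in Tet, 920 in pnt, 767 in heca, 679 in Snoo and 627 in pum. The strongest peaks of Tet, Tlk, CG32264 and CG42238 had no copy within 200 bp of the summit. The same 90 bp to each side of the summit are shown for the strongest peaks in Tlk, the gene of the Tousled-like kinase (chrX:3742140-3742320, plus strand), and in CG32264 (chr3L:3785142-3785322, plus strand).
Tlk: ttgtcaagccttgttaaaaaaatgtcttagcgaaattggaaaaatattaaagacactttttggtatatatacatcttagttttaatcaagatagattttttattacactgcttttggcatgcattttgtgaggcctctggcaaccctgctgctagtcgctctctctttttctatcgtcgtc
CG32264: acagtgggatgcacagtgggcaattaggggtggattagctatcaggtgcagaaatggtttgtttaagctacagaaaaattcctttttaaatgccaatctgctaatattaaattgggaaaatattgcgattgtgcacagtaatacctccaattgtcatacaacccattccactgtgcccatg

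The word had a direction. Within 200 bp of the 1091 summits there were 139 copies, and 132 of them (94.96%, 95% Wilson interval 89.97 to 97.5%), read as CACTGAGA, pointed toward the summit. The copies that pointed to a summit lay a median of 83.5 bp away (quartiles 64 to 107 bp), and 125 peaks (11.5%) had at least 1 of them. In 7 peaks a copy on each side pointed inward. Between 200 and 400 bp from the summit 9 of 16 copies pointed toward it. In that range 17 of 24 copies did so at distal intronic peaks of shorter genes and 20 of 26 at distal intergenic peaks. Over the whole list it was 91 of 129. The direction had not been used to pick the word. Within 200 bp other peaks showed the same direction. This was so for 101 of 108 copies at distal intronic peaks of shorter genes and 143 of 151 at distal intergenic peaks. Over the whole list 596 of 643 copies within 200 bp pointed inward. When the rule was applied to the 8399 strongest regions of each replicate list, 119 of 128 copies pointed inward in replicate 2 and 130 of 136 in replicate 3. These counts are not independent of the 132 of 139. The whole list includes the class, and 86.9% of the class overlapped such regions in both replicate lists.

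**Figure D1:**
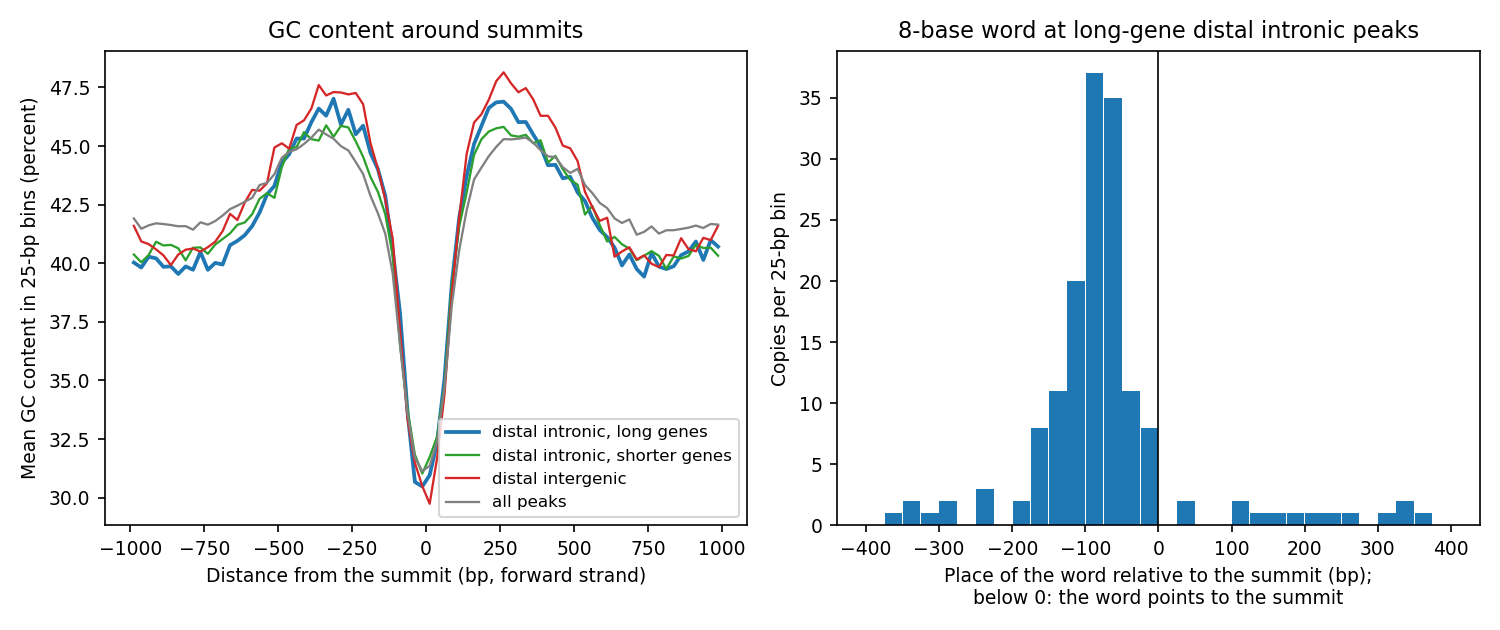
Left, mean GC content in 25-bp bins against distance from the summit for 4 sets of peaks; the curve of the 1091 distal intronic peaks in long genes has its lowest bin at 30.5% and its highest at 47.0%. Right, copies of the 8-base word per 25-bp bin around the same 1091 summits, turned so that places below 0 are copies that point to the summit; 132 of the 139 copies within 200 bp lie there.

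Most copies of the word in eligible sequence lay away from any peak. The IDR list is the list of 8399 peaks, which the authors cut on a measure of reproducibility (irreproducible discovery rate). Eligible sequence held 762 copies of the word. Of these, 89 (11.7%, 95% Wilson interval 9.59 to 14.2%) lay within 100 bp of a summit of the IDR list, while 0.988% of the eligible bases lay that near. The merged list of 30000 regions, labelled as peaks and background given to the IDR step, had 177 copies (23.2%) within 100 bp of a summit. The share of eligible bases that near a merged summit was not measured. Of the 89 copies, 65 (73.03%, 63.0 to 81.2%) were in soft-masked sequence, bases that the assembly writes in lower case as repeats or low complexity, against 209 of the other 673 copies (31.1%, 27.7 to 34.7%). Peaks with the word had a median signal of 206 and peaks without it 178. The share of peaks with the word was 7.88% in the class, 4.84% for distal intronic peaks in shorter genes, 7.77% for distal intergenic peaks, 4.63% for peaks over 500 and up to 2000 bp from a start site, 1.76% for peaks within 500 bp of one and 4.66% over the 8399 peaks of the whole list. The word was picked for its share at the long-gene peaks, so these differences were not tested.

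GC content dipped at the summit. Over the 1091 peaks it averaged 33.8% ± 5.72 within 100 bp of the summit, against 43.4% ± 5.56 in the flanking windows (SD over peaks), a mean difference of −9.59 percentage points ± 7.998. The summit window had the lower GC content in 967 peaks (88.6%). Tiled eligible sequence averaged 40.3% ± 7.85, so the summits lay below and the flanks above the introns as a whole. The whole list had the same shape, with 33.7% at summits, 43.9% in flanks and a difference of −10.2 points. Soft-masked bases made up 23.2% of the summit windows, 18.8% of the flanks and 26.7% of tiled eligible sequence.

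Short motifs followed this base composition in part. TATAAA, searched like all motifs here on both strands, was in 37.6% of the summit windows, 18.4% of the flanks and 23.4% of tiled eligible windows, and AATATA was in 42.8%, 16.8% and 22.6%. GATAA, the core bound by GATA factors, was in 38.1% of summit windows, 27.5% of flanks and 32.7% of tiled windows. CAGTGC, whose reverse complement holds the letters CACTG that open the 8-base word, was in 22.0% of summit windows, 8.52% of flanks and 8.09% of tiled windows. GAGAG, the core of the GAGA element, was in 21.8% of summit windows, 25.3% of flanks and 22.0% of tiled windows. CACACA was in 13.0% of summit windows, 22.5% of flanks and 17.6% of tiled windows, and the E-box CAGCTG in 4.67%, 9.40% and 6.91%. Another E-box, CACGTG, was in 1.01% of summit windows, 1.74% of flanks and 2.18% of tiled windows. The DREF element TATCGATA was in 0.550% of summit windows, 0.321% of flanks and 0.431% of tiled windows. Over the 8399 summits of the whole list the shares were 40.3% for TATAAA, 43.9% for AATATA, 40.9% for GATAA, 18.1% for CAGTGC, 19.8% for GAGAG, 13.0% for CACACA, 5.93% for CAGCTG, 1.48% for CACGTG and 1.71% for TATCGATA. The differences between the class and the whole list were not tested. Around the 677 copies of CACTG in the summit windows, A stood at positions 10, 11 and 12, counted from the first C, in 56.4, 59.8 and 56.0%. In the 694 copies in the flanks it was 25.8, 26.4 and 26.7%. These positions were picked because their shares were the highest outside CACTG. The lower GC content of the summit windows was not taken into account.

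The peaks were of middling strength. Their merged signals had a median of 179 (quartiles 129 and 285, highest 1531), against 190 over the whole list, and their median percentile in the list was 46.2. The class supplied 82 of the 1000 strongest peaks (8.20%) and 142 of the 1000 weakest (14.2%). Distal intronic peaks in shorter genes had a median of 180 and intergenic peaks 168. Farther down the merged list a larger share met the positional rule, 12.46% of ranks 1 to 5000 and 18.2% of ranks 25001 to 30000. The 21601 merged regions outside the IDR list included 3707 such places (17.2%). Eligible sequence made up 16.6% of the arms, so the shares at the lower ranks were near the share of sequence.

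The replicates agreed on most of these peaks. A share of 86.9% (948 peaks, 95% Wilson interval 84.8 to 88.8%) overlapped one of the 8399 strongest regions in both replicate lists, against 87.0% over the whole list, and 2 peaks overlapped such a region in neither. All 1091 overlapped some region of both replicate lists. The median signal was 93.4 in replicate 2 and 97.2 in replicate 3, and the log2 ratio of replicate 3 over replicate 2 had a median of 0.06 and an SD of 0.33 across peaks. After the median ratio of the list had been removed, 68 peaks (6.23%) differed by over 1.5-fold between replicates, against 7.99% over the 8319 peaks of the list with a region in both. The IDR list itself derives from these replicates, so this agreement is not independent of how the list was made. Of its 8399 entries, 29 overlapped no region of replicate 2 and 51 none of replicate 3. The widest gap was at a peak of Eip74EF (chr3L, 17578593 to 17578736) with a signal of 200 in replicate 2 and 23.4 in replicate 3.

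**Figure D2:**
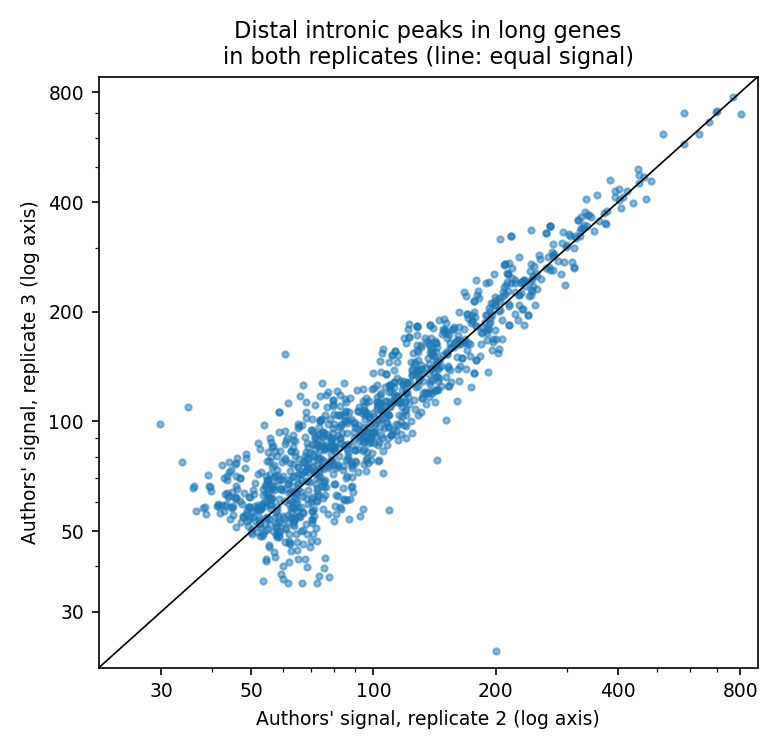
Authors' signal of each of the 1091 distal intronic peaks in long genes, replicate 3 against replicate 2, both axes logarithmic; the line marks equal signal. Most points lie near the line, and the point farthest below it is the Eip74EF peak at 200 and 23.4.

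The 10 strongest peaks lay in LRP1, Tet, Tlk, CG32264, CG42238, Hr4 and Eip75B. The top peak lay in intron 1 of LRP1, a gene of the low-density lipoprotein receptor family (chr2R, 8178198 to 8178556), 4215 bp from the nearest start site, with a merged signal of 1531 (773 ± 4.87, mean of the replicate lists ± SD, n = 2). It ranked 65 of 8399. Tet followed with a peak in intron 5 (chr3L, 2824020 to 2824394) of signal 1491 (749 ± 74.4) and had another close by (chr3L, 2823007 to 2823329), of signal 1166 (580 ± 2.27). The Tlk peak in intron 2 (chrX, 3742044 to 3742400) reached 1411 (706 ± 6.96). The CG32264 peak in intron 2 (chr3L, 3785067 to 3785407) reached 1400 (702 ± 8.90). The CG42238 peak in intron 4 (chr2L, 21009341 to 21009705) reached 1334 (667 ± 3.31) and was 25250 bp from the nearest start site, the farthest among these.

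A pair of ecdysone-cascade genes supplied the other 4 of the 10 strongest peaks. Hr4, a nuclear receptor gene, held peaks in intron 2 at chrX, 1951728 to 1952079 (signal 1284, 642 ± 83.5) and 1947577 to 1947918 (1136, 567 ± 70.5). In both, replicate 3 was the higher, with 701 against 583 in replicate 2 at the first and 617 against 517 at the second. Eip75B, the nuclear receptor gene that ecdysone induces early, held peaks in intron 3 at chr3L, 18009012 to 18009350 (1244, 624 ± 14.8) and 18011757 to 18012067 (945, 470 ± 32.0). Among the 10 strongest peaks the lowest replicate signal was 447, at the weaker Eip75B peak in replicate 2, while the class medians were 93.4 in replicate 2 and 97.2 in replicate 3.

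The peaks were unevenly shared out among long genes. Of the 307 protein-coding genes of 50 kb or longer, 188 (61.2%, 95% Wilson interval 55.7 to 66.5%) hosted at least 1 peak and 119 none. Hosts held a median of 4.5 peaks (quartiles 2 and 9), 30 held a single one, and the 36 hosts with 10 or more held 482 peaks (44.2% of the class). The length of a gene said little about its count. Hosts had a median length of 75.04 kb and genes without a peak 74.0 kb, and over the 307 genes Spearman's rho between peaks and kb of eligible sequence was 0.16, a value across genes, which are not independent replicates. A peak within 500 bp of an own start site accompanied 79 of the 188 hosts (42.0%), against 17 of the 119 other long genes (14.3%) and 31.3% of all 307.

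kirre, a gene of the immunoglobulin family needed for myoblast fusion, held the most, 27 peaks over 322 kb of its 394 kb (chrX, 2740384 to 3134532). Of these 19 were in intron 5, an intron of 118 kb, and the signals of the 27 ranged from 103 to 805 (median 220). SKIP, the gene of a protein that interacts with the Shal potassium channel, had 21 peaks, 14 of them in intron 4, and none above 470. CG43658 and Snoo had 20 each. All 20 in Snoo were in intron 2, of 78.4 kb, with signals from 105 to 878. hth, a homeodomain cofactor of Hox proteins, had 18 peaks spread over 7 introns, none above 364. jing, a zinc finger gene, had 17, all in intron 1, of 110 kb. heca had 17, 10 of them in intron 1, and Tet 17, 13 of them in intron 5. plum, an immunoglobulin-family gene acting in axon pruning, had 16, all in intron 2. fz, the Wnt receptor of planar cell polarity, had 14, 9 of them in intron 4. ed and sbb had as many as fz and are shorter. In each of the 10 genes between 11 and 25 of the peaks were among the strongest regions of both replicates.

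**Figure D3:**
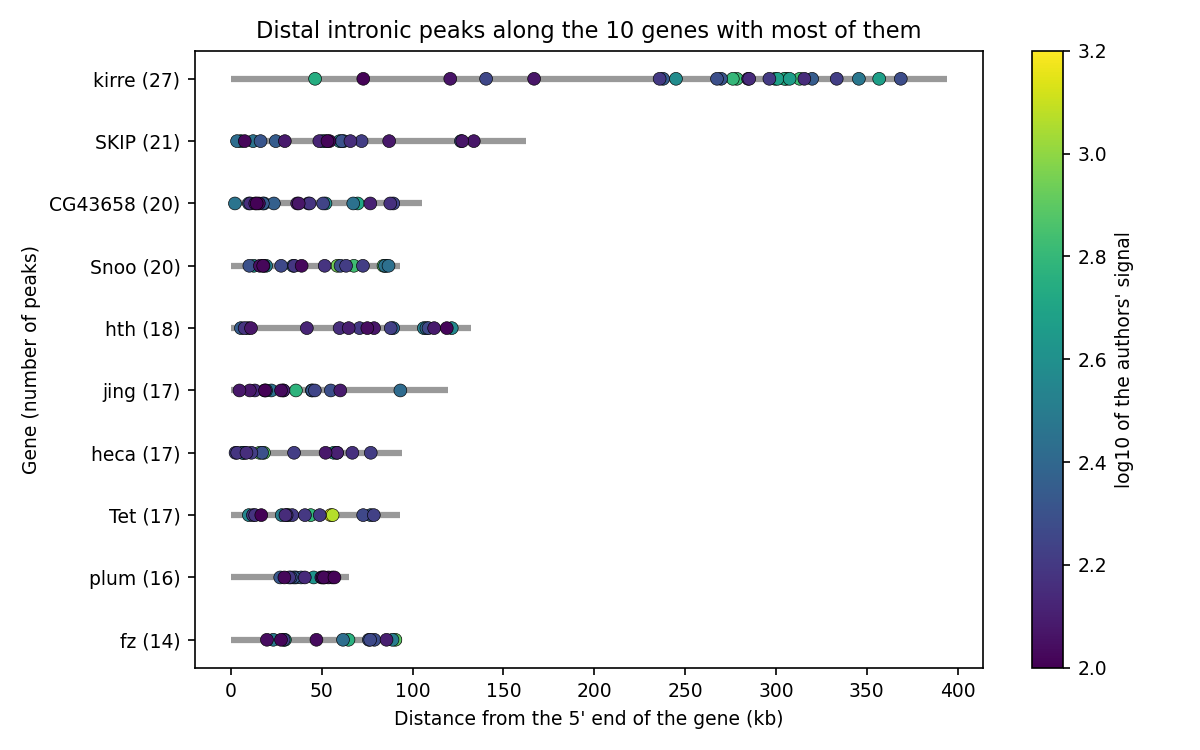
Summits along the 10 genes with most distal intronic peaks, drawn to scale as distance in kb from the 5′ end of the gene; grey bars are the genes, the number of peaks is in brackets, and colour gives log10 of the authors' merged signal. The peaks of kirre span 322 kb, and the yellow points of Tet are its peaks of 1491 and 1166.

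Counted per 100 kb of eligible sequence, other genes led. Among hosts with 5 or more peaks, tkv, the type I receptor for the BMP ligand Dpp, had 9 peaks in 25.6 kb (35.1 per 100 kb). plum followed with 33.7 and shn, a zinc finger gene of the Dpp pathway, with 30.2. sbb, a nuclear regulator of growth and patterning, had 29.9, and ush, a FOG-family cofactor of GATA factors, 29.0. kirre had 9.39. In sbb the lowest of the 14 signals was 145 and the median 329, and in shn the lowest of 9 was 170 and the median 243.

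The 4 longest genes had none. Myo81F, a myosin gene of 1966 kb (chr3R, 567076 to 2532932), had no peak and no region of the merged list in 1938 kb of eligible sequence. Pzl, a Piezo-like channel gene of 709 kb, lovit of 434 kb and CG17684 of 396 kb had no peak and 1 merged region each, and DIP-lambda, an immunoglobulin-family gene of 379 kb, had no peak and 3 merged regions. The merged list also holds background, and 288 of all 307 long genes had regions of it in their eligible sequence. Of the 119 genes without a peak, 100 had merged regions outside the IDR list. The remaining 19 had none, 7 of them because another longer gene, start sites or exons left them no eligible sequence. The 12 others held 2.73 Mb, of which 40.3% was soft-masked, against 24.6% in the other long genes. Myo81F alone supplied 1938 kb of the 2.73 Mb, so the 40.3% is mostly a value of that gene. The part of repeats in the lack of merged regions was not tested.

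**Figure D4:**
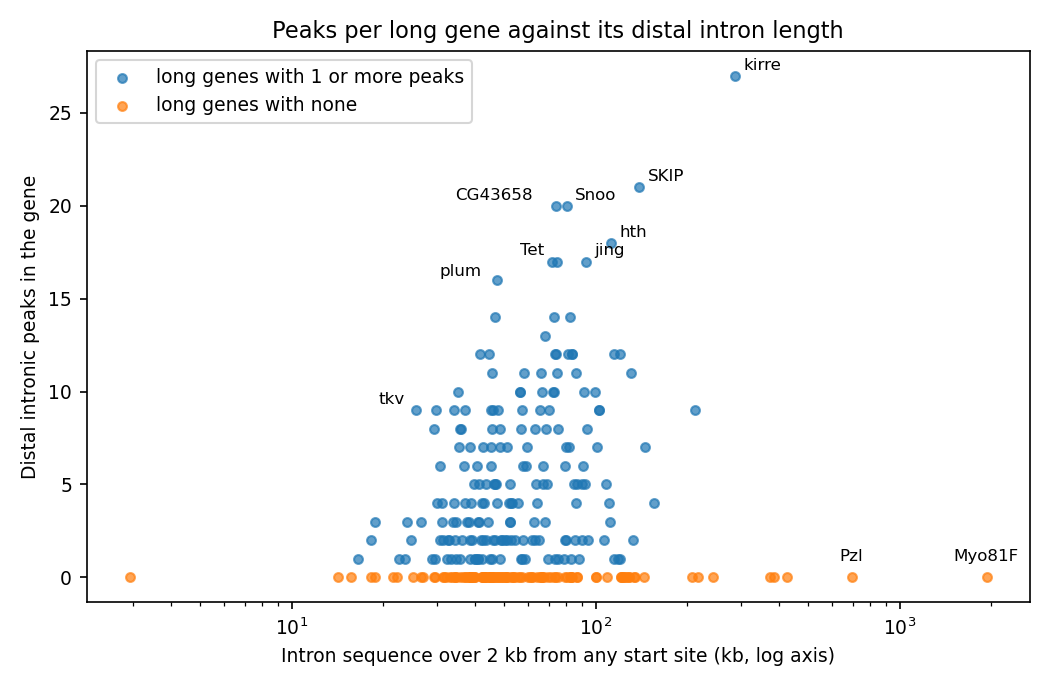
Distal intronic peaks per gene against kb of eligible intron sequence (log axis) for the protein-coding genes of 50 kb or longer that have any; blue genes have 1 or more peaks and orange genes none. kirre is at the top with 27 peaks, tkv has 9 in 25.6 kb, and Myo81F and Pzl lie at 0 on the right.

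The density of the class was below that of the list. It came to 49.2 peaks per Mb of eligible sequence (22.2 Mb), against 77.0 in distal introns of shorter genes, 39.8 in distal intergenic sequence, 144 within 500 bp of start sites and 62.7 over all arms. Without the 19 genes that have no merged region the class had 56.1 per Mb. By arm it was 70.8 on 2L, 56.5 on X, 45.8 on 3L, 44.7 on 2R and 38.9 on 3R, the arm that holds Myo81F. Chromosome 4 had 1 long gene and no peak of the class.

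Most of the peaks were in early introns. Introns were numbered from the 5′ end of the longest transcript of the host with an intron at the summit. Intron 2 held 434 peaks (39.8%, 95% Wilson interval 36.9 to 42.7%), against 25.8% of eligible sequence. Intron 1 held 244 (22.4%, 19.99 to 24.9%) against 16.1%. Intron 3 held 154 (14.1%) against 15.1%, and intron 4 held 113 (10.4%) against 9.13%. Introns 5 and later, up to intron 25, held 146 (13.4%, 11.5 to 15.5%) against 33.9%. Per Mb this was 75.8 in intron 2, 68.4 in intron 1 and 19.4 in introns 5 and later, and 77.1, 76.7 and 26.3 without the genes that have no merged region. Median signals differed little, from 165 in intron 4 to 191 in intron 1.

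**Figure D5:**
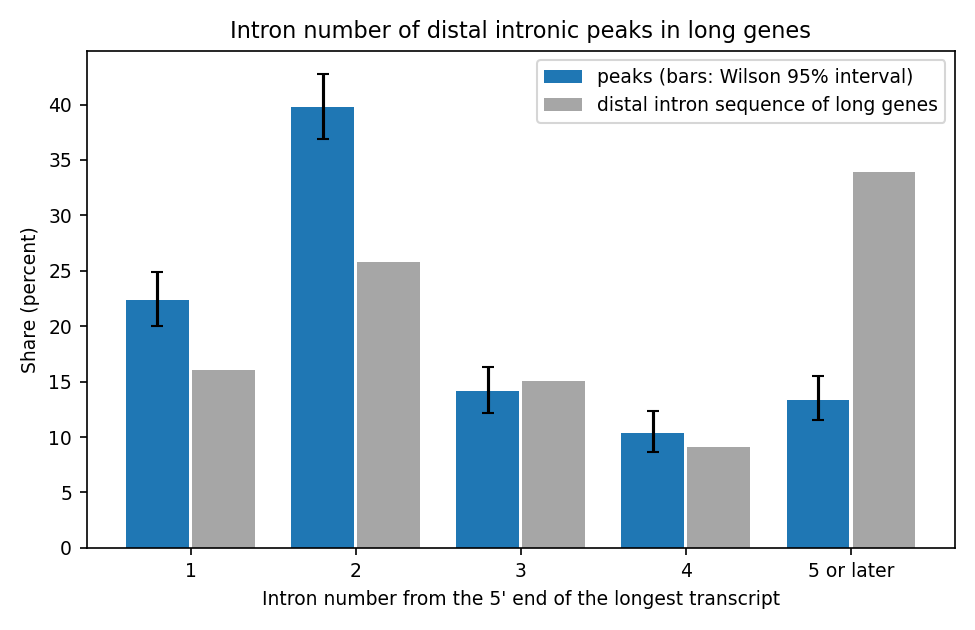
Share of the 1091 peaks (blue, with 95% Wilson intervals) and of eligible intron sequence (grey) by intron number. Peaks exceed sequence in introns 1 and 2, and fall short of it in introns 5 and later, at 13.4% against 33.9%.

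The number given to an intron depends on the transcript. Numbered on the transcript that starts nearest upstream of the summit, intron 1 held 36.9% of the peaks against 24.1% of eligible sequence. On the transcript with most introns it held 19.2% against 14.5%. The share of peaks in intron 1 exceeded the share of sequence with all 3 ways of numbering.

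The introns were long and the peaks lay anywhere within them. The intron at the summit had a median length of 40.5 kb (quartiles 21.6 and 60.4 kb, longest 133 kb), and the summit lay a median of 48.0% of the way along it (quartiles 26.6 and 71.4%). Distance to the nearest start site of any gene had a median of 8.68 kb and reached 52.4 kb. Density was 71.1 per Mb at 2 to 5 kb from a start site, 63.4 at 5 to 10 kb, 62.2 at 10 to 20 kb and 19.7 beyond 20 kb. Without the genes that have no merged region the last of these was 27.6. At 96 summits (8.80%) another gene also spanned the place, so a host is a label of position and not a target.

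The spacing of peaks within 1 gene varied widely. The 903 gaps between neighbouring summits of the same host had a median of 3.53 kb (quartiles 1.30 and 9.94 kb), and 179 (19.8%) were under 1 kb. Merging overlapping entries left 1026 separate regions of the 1091, so some of the gaps under 1 kb lay between overlapping entries. The gaps were not set beside an expected spacing. In shn the median gap was 0.788 kb and in kirre 6.32 kb.

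Gene lists by role, 8 in all, were drawn up from general knowledge with earlier results of these data known, and 664 of their 689 symbols matched the annotation. Each is described by its long genes without a test, beside the 61.2% of all 307 that hosted a peak and their median of 2 peaks. Of 9 long ecdysone-response genes, 7 hosted peaks, 50 in all (median 6). Eip75B had 10, Hr4 9, Eip74EF, an early ETS-factor gene, 9, and tai, a coactivator of the ecdysone receptor, 8. ftz-f1, a nuclear receptor gene of the prepupa, had 6 and EcR, the receptor gene itself, 4. br, whose products are early zinc finger regulators, had no eligible sequence as host, and chinmo had no peak in 35.9 kb. In Eip74EF 7 of the 9 were in intron 5, and in tai 7 of the 8 in intron 2.

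Most long signalling and transcription factor genes on the lists were hosts, which was not tested. All 6 long genes of growth factor, Notch, Wnt, Hedgehog and TGF-beta signalling hosted peaks, 54 in all (median 9). They were fz with 14, the Wnt receptor gene fz2 with 10, mam, a Notch coactivator, with 9, tkv with 9, dally, a glypican gene, with 8, and ths, an FGF gene, with 4. Of 22 long genes of developmental transcription factors, 18 hosted 145 peaks (median 5.5), led by hth, jing, sbb and luna, a Krüppel-like factor gene with 12. Antp, a Hox gene, also had 12, while Ubx had none in 61.5 kb of eligible sequence. Ubx had 10 merged regions, which may be background. pros and lola had none. The list also holds Eip63E, a cyclin-dependent kinase gene with 9 peaks, and rdo, a gene of a leucine-rich repeat protein with none, which do not code for transcription factors. Without them 17 of 20 long genes hosted 136 peaks (median 5.5).

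Adhesion genes hosted peaks about as often as all long genes. Of 41 long genes of adhesion and axon guidance, 25 (61.0%) hosted 135 peaks, beside 61.2% of all 307. Their median was 1 peak, beside 2 over all 307. kirre, ed, an immunoglobulin-family gene with 14, Fas3 with 10, all in intron 1, and Ten-a, a teneurin gene with 9, led the list. No peak was in Ten-m, the other teneurin gene, in CadN2 or in 6 dpr genes, the partners of the DIP proteins. Their relatives CadN and dpr3 had 5 peaks and 1 peak.

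Ion channel and neurotransmitter receptor genes were seldom hosts. Of 19 long ones, 4 (21.1%, 95% Wilson interval 8.51 to 43.3%) hosted 5 peaks, 2.96 per Mb of their 1.69 Mb. Without Pzl, the density was 5.05 per Mb of 0.990 Mb. These were nAChRalpha6 with 2 and SLO2, Ca-alpha1T and nAChRalpha5 with 1 each, and the strongest, in nAChRalpha6, had a signal of 270. para, the voltage-gated sodium channel gene, had none in 53.8 kb, Sh, a potassium channel gene, none in 82.5 kb, and cac, a calcium channel gene, none in 37.3 kb. They had 3, 11 and 4 merged regions, in that order, which may be background.

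Of the long genes on the 3 remaining lists, 64.3 to 85.7% hosted a peak, beside 61.2% of all 307. Per Mb of eligible sequence these lists held 48.0, 22.7 and 38.6 peaks in the order below, beside 49.2 for all long genes. The 22.7 is for the cytoskeleton, muscle and matrix list, which includes Myo81F with 1938 kb and no peak. Of 14 long genes of kinases, phosphodiesterases and small GTPase regulators, 9 hosted 39 peaks, with 12 in Ptp61F, a tyrosine phosphatase gene, all of them in intron 3, 9 in cv-c, a RhoGAP gene, 4 in Pde11 and 3 in dnc. Of 21 of the cytoskeleton, muscle and matrix list, 16 hosted 64, with 12 in mgl, 8 in pyd, a ZO-1 family gene of cell junctions, and 7 each in cpo and sdt. Of 14 genes of RNA-binding proteins, 12 hosted 54, with 11 in heph, the fly PTB gene, 7 each in pum and cpo and 6 in mub. bru3 and bru2 had none. The gene cpo codes for an RNA-binding protein and is counted in both of these lists, and bt, a gene with no peak, is counted in the kinase and the cytoskeleton lists. Without cpo, 15 of 20 genes of the cytoskeleton, muscle and matrix list hosted 57 peaks.

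The limits of the rule fell inside a continuum. Hosts of 50 to under 55 kb held 81 peaks with a median signal of 170, and genes of 45 to under 50 kb held 130 peaks outside the class with a median of 178. Summits over 2 kb and up to 2.2 kb from a start site numbered 26 (median signal 222), and 29 otherwise alike lay over 1.8 kb and up to 2 kb away (208). Annotated transposable elements held 4 of the 1091 summits (0.367%), 24 of the 8399 summits of the whole list (0.286%) and 8.33% of eligible bases.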

How the data were processed

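The authors' signal of each region and its summit offset were read from the deposited dm6 lists: the IDR list (8399 regions), the merged list and a list per replicate (30000 regions each). The merged list is labelled as peaks and background given to the IDR step. Both merged lists derive from the 2 replicates, per the files that accompany them. No label or header used here names an aligner, a peak caller or the cut-off of the IDR step. Lists on dm3 were not used. Start sites, exons and introns came from the BDGP6 annotation (version 54, Ensembl release 115), without transposable elements, and bases from the RefSeq dm6 assembly. A replicate's value at a peak is the highest signal among its regions that overlap by 1 bp or more, so 122 of the 1091 entries share a replicate 2 region with another entry. Windows were 100 bp to each side of the summit, flanks the same size centred at 500 bp. Shares carry Wilson 95% intervals, which cover counting error only. No test was made: peaks are not replicates. The positional rule was tested on simulated gene models. Python 3.11.15, numpy, pandas and scipy were used.

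Members, gene lists and rules were chosen with earlier results of these data known. Named genes are the hosts with the 10 highest counts, the hosts of the 10 strongest peaks, the 5 densest hosts with 5 or more peaks, the 5 longest genes without one, and up to 4 long genes per list with most peaks. Further genes were named after their values were seen. Alternatives changed the distance, the gene length, the start sites, the summit, the list used, the windows and the overlap.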

Additional observations from a re-analysis of the deposited data

How the results depend on the processing

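No paired analysis was possible because the series has a single group and no test was made. A value counts as moved when it changed by more than the SD between the 2 replicate lists, or, for counts, by over 1.5 times. That SD rests on 2 values and was small (0.188 points for the intron 1 share and 0.00156 points for the GC difference). By it every alternative GC difference counts as moved, also −9.57 points at midpoints against −9.59 as reported. The share in both replicates counts as moved when it left its Wilson interval. By these rules 43 of the 80 values under an alternative moved. The number of peaks (1091 as reported) was 367 with hosts of 100 kb or longer, with 49 hosts, and 505 among the 4199 strongest entries; under the other alternatives it stayed between 786 and 1373. The share in intron 1 (22.4%) was 24.03% and 21.9% with start sites over 1000 and over 5000 bp away, 25.9% and 19.1% with hosts of 40 and of 100 kb or longer, 21.8% with start sites of protein-coding genes only, 21.9% with overlapping entries merged and 24.4% among the 4199 strongest. It was 19.2% on the transcript with most introns and 36.9% on the one starting nearest upstream. Peaks per Mb (49.2), in the same order of the first 7 settings, were 52.9, 43.9, 52.2, 31.2, 49.8, 46.3 and 22.8. Without the genes that have no merged region, an alternative added after the data were seen, they were 56.1. The median percentile (46.2) was 44.5 with start sites over 5000 bp away, 44.2 with hosts of 100 kb or longer and 43.1 within the 4199 strongest. The share in both replicates (86.9%) was 99.8% among the 4199 strongest, 79.5% with a reciprocal overlap of 50% and 100% with all regions of each replicate list.

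The GC difference (−9.59 points) was −9.35 and −9.94 with start sites over 1000 and over 5000 bp away, −9.73 and −9.69 with hosts of 40 and of 100 kb or longer, −9.63 with start sites of protein-coding genes only, −9.57 at midpoints, −9.97 with entries merged and −9.92 among the 4199 strongest. It was −12.4 with windows of 50 bp to each side and −6.67 with flanks at 1000 bp. Leaving out a replicate gave 22.9 to 23.1% in intron 1, 48.0 to 48.3 peaks per Mb and a GC difference of −9.41 points both times; the share in both replicates has no value without one. Start sites of transposable elements, also added later, left 1044 peaks in 185 hosts. The share of copies of the 8-base word that point to the summit lay between 92.97 and 95.6%. Unknown read depth and the lack of an analysed control limit how a missing peak can be read.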
